A study of Bos taurus with 2 samples.

Results

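The miRNAs described here are entries of a bovine lung small-RNA table that carry the name of another species and whose miRNA number, the digits after miR, was not carried by any entry with a bovine (bta) name. Names that the authors gave to predicted miRNAs were left out, and the listed sequence had to be at least 18 nt long. These criteria gave 95 of 2271 entries, with 74 different numbers and 95 different sequences. The table also held 758 entries with a bovine name, 354 with another species' name but a bovine number, 975 predicted ones, and 89 that met the naming criteria but were shorter than 18 nt. The choice used names and lengths only, not read counts.

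Small RNA was sequenced from the lungs of neonatal cattle (Bos taurus), in a study of lung collapse in cloned newborns. Each of the 2 libraries was made from a single pool of total RNA of 4 animals, with 500 ng from each. The libraries are labelled normal and collapsed by lung phenotype. The series sets cloned cows against normal ones, but the labels of the libraries themselves give only the phenotype, so cloning and collapse cannot be told apart. Breed, age in days and any agent are not stated.

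A miRNA is a short RNA cut from a hairpin precursor, and it guides a silencing complex to messenger RNAs that pair with its seed, the bases near its 5′ end. miRNA names carry a species prefix and a number, so a miRNA already described in human, mouse or pig can be sequenced from cattle before a bovine entry exists. Fragments of ribosomal and transfer RNAs also enter small-RNA libraries, and some registered miRNA names have been ascribed to such fragments.

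The deposited library totals over all entries were 4550911 reads (normal) and 2822876 reads (collapsed), a ratio of 1.61, and levels are given as reads per 1000000 of these totals (RPM). Bovine miRNAs were taken as markers of cell types, with levels given for the normal and then the collapsed library. The endothelial miR-126 stood at 46324 and 48683 RPM, and the epithelial miR-200b and miR-141 at 2601 and 2616 RPM and at 1182 and 872 RPM. The smooth-muscle miR-143 and miR-145 stood at 146468 and 135034 RPM and at 6771 and 4538 RPM. The red-cell miR-451 and miR-486 stood at 1637 and 1542 RPM and at 957 and 940.2 RPM, and the leukocyte miR-142 and miR-223 at 2020 and 1692 RPM and at 417 and 292 RPM. The multiciliated-cell miR-34c and miR-449a stood at 6596 and 2105 RPM and at 456 and 312 RPM, the neuroendocrine miR-375 at 282 and 196 RPM, and the liver miR-122 at 34.3 and 17.4 RPM. The levels of miR-126 and miR-142 are sums of 2 bovine entries each. Of these 13 markers, miR-126 and miR-200b were higher in the collapsed library and the other 11 were lower. Both rises were small, and this split depends on the scaling of the libraries. Of all 487 entries with a mean of at least 10 RPM, 287 were higher in the collapsed library and 200 lower. The part that the mixture of cells played in the results below was not tested. In whole lung, fewer cells of a type and less RNA per cell cannot be told apart.

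With 1 library per phenotype there was no replicate and no test between phenotypes. Each ratio is collapsed over normal RPM with an exact 95% interval that covers counting error only. An entry was taken as measured at a mean of at least 10 RPM over both libraries, and called when its ratio was also at least 2 or at most 0.5 with an interval that left out 1.

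The 13 measured miRNAs carry nearly all reads of the 95, so their sequences are shown first, with the prefix and suffix of the table. The capitals mark the seed, bases 2 to 8. The suffix is not explained in the sources used here and is read as a difference from the named miRNA: L and R for bases gained or lost at the left or right end, and ss for a substitution. The form mir with p5 or p3 marks a sequence placed on an arm of a precursor.

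sha-mir-716a-p3_1ss22TC: tCAAACGAgaactttgaaggcc

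ptr-miR-203_R+1: gTGAAATGtttaggaccactaga

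ssc-mir-1285-p5: gCGCCTGTgaatagccactgtac

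mmu-miR-300-3p_R-2: tATGCAAGggcaagctctct

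cgr-miR-300_R-2_1ss7AG: tATGCAGGggcaagctctct

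hsa-mir-7641-2-p5: cTAAGCAGggtcgggcctggtt

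hsa-mir-7641-2-p3: tCGGGCCTggttagtacttgga

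hsa-mir-7641-1-p3: gGGCCTGGttagtacttgga

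hsa-mir-6087-p3_1ss3TC: cCCGAGGGgctctcgcttctggc

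ssc-mir-4332-p3_1ss11CA: cGCCGGGCgcatttccacc

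ssc-mir-4332-p5_1ss1GT: tTCGCGGGggtgggcgggc

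mmu-miR-1983: cTCACCTGgagcatgttttct

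ggo-miR-203b: tTGAACTGttaagaaccactgg

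The 13 sequences carried 13 different seeds, so none of them shared a seed with another. Of the 95 sequences, 10 (10.5%) shared their seed with a bovine entry, against 125 of the 354 (35.3%) under another species' name with a bovine number. Among the measured 13 this was so of miR-203b alone, whose seed was also that of bta-miR-2411-3p. The full set held 92 seeds over its 95 sequences. The shared ones joined a pair of miR-322 entries, a pair of miR-4454 entries and a pair of miR-6129 entries.

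As a group, the 95 miRNAs took a small and similar share of both libraries: 0.382% of reads in the normal library (exact 95% interval 0.376 to 0.387) and 0.402% in the collapsed library (0.395 to 0.410). The summed level was 3816 RPM (normal) and 4025 RPM (collapsed), a ratio of 1.05 (1.03 to 1.08) and a log2 ratio of 0.08. Median-of-ratios scaling, a trimmed mean and the authors' factors lower every log2 ratio by 0.12 to 0.16. The direction of the summed ratio therefore depends on the scaling. A single entry, mir-716a, held 59.3% and 59.7% of the reads of the 95, and without it the share was 0.155% and 0.162%. Reads were listed for 79 of the 95 in the normal library and for 68 in the collapsed library, and for 52 in both. Only 13 of the 95 (13.7%) were measured, against 344 of the 715 bovine entries of that length (48.1%) and 108 of 354 (30.5%) under another species' name with a bovine number.

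Of the 13, 1 was called higher in the collapsed library, where 3.49% of all 487 measured entries were, and 0 were called lower, where 2.87% were. The counting interval left out 1 for 8 of the 13, beside 60.8% of all measured entries. A ratio above 1 was found for 8 and below 1 for 5, and 11 of the 13 lay within 1.5-fold of 1. Of all 487 measured entries, 287 lay above 1, 200 below, and 388 within 1.5-fold of 1. The median log2 ratio of the 13 was 0.14, with quartiles of -0.05 and 0.44, beside 0.09 over all measured entries, with quartiles of -0.18 and 0.34. The split of 8 above and 5 below depends on the scaling, since median-of-ratios scaling, which lowers every log2 ratio by 0.16, gave 5 above and 8 below.

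**Figure D1:**
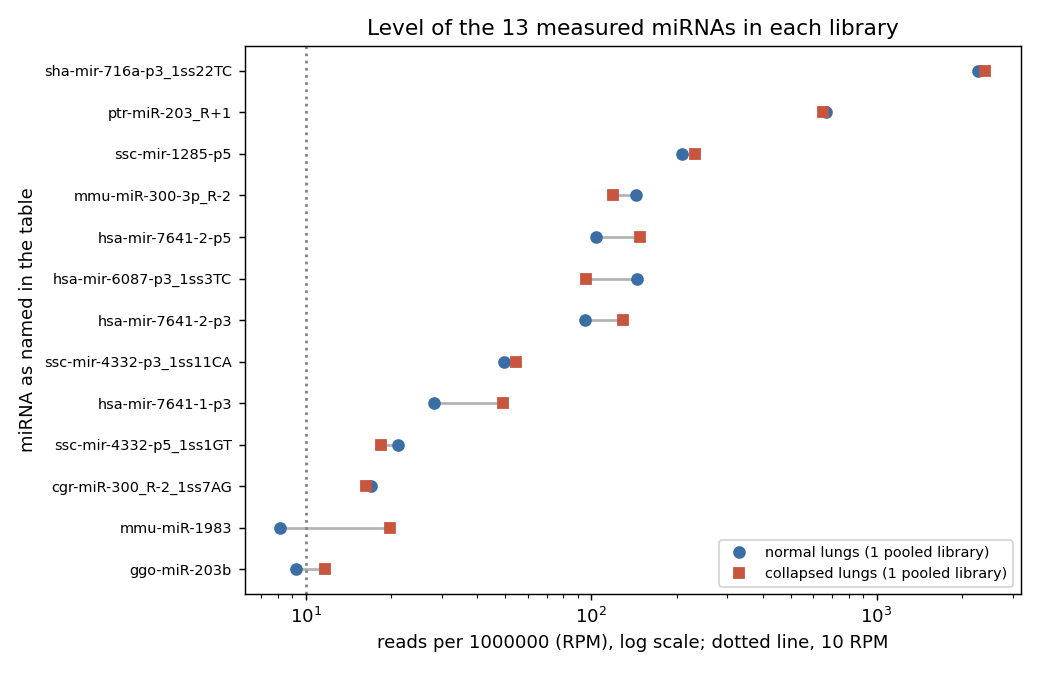
Level in RPM on a log scale of the 13 measured miRNAs, with a circle for the normal and a square for the collapsed library; each point is 1 pooled library and has no replicate. The levels run from 2262 and 2403 RPM for mir-716a down to 8.13 RPM for miR-1983 in the normal and 11.7 RPM for miR-203b in the collapsed library, and miR-1983 has the widest gap on the log scale.

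The most abundant was named after a Tasmanian devil hairpin, sha-mir-716a-p3. It had 10296 reads in the normal library, or 2262 RPM, and 6784 reads in the collapsed library, or 2403 RPM. The collapsed library was the higher by 1.06-fold (1.03 to 1.10), a log2 ratio of 0.09 that turned to -0.07 under median-of-ratios scaling. No role is given for it here.

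miR-203 and miR-300 are the measured names that belong to miRNAs well studied in other mammals. miR-203 is abundant in skin and other stratified epithelia of mouse and human, where it promotes differentiation. The chimpanzee-named miR-203 had 3031 reads (normal) and 1833 reads (collapsed), or 666 and 649 RPM. The ratio was 0.975 with an interval of 0.920 to 1.03. Under the other 3 scalings its log2 ratio of -0.04 became -0.15 to -0.19, each with an interval below 0. The gorilla-named miR-203b stood at 9.23 RPM (42 reads) and 11.7 RPM (33 reads), and its ratio of 1.27 had an interval from 0.778 to 2.05. The third entry of that number, mouse-named miR-203-5p, had 3 reads and 1 read.

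miR-203b and miR-203-5p are complementary in sequence. The capitals mark a run of 20 nt in one that is the reverse complement of a run in the other, and where in the bovine genome either was made was not tested.

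ggo-miR-203b: TTGAACTGTTAAGAACCACTgg

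mmu-miR-203-5p_1ss11GA: AGTGGTTCTTAACAGTTCAAca

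miR-300 in mouse and human comes from the imprinted DLK1-DIO3 region, which holds one of the largest mammalian miRNA clusters. The mouse-named miR-300-3p had 652 reads (normal) and 336 reads (collapsed), or 143 and 119 RPM. It was lower in the collapsed library, with a ratio of 0.831 (0.726 to 0.949) and a log2 ratio of -0.27. The hamster-named miR-300 stood at 16.9 RPM (77 reads) and 16.3 RPM (46 reads), a ratio of 0.963 whose interval ran from 0.653 to 1.41.

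Both miR-300 sequences lay close to a bovine entry of the same cluster, bta-miR-381. Counted from 1 at the 5′ end of the bovine sequence and with the bovine base first, the mouse-named sequence differed by A4G and the hamster-named one by A4G and A7G. The differing bases are in capitals, and both positions fall within the seed.

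bta-miR-381: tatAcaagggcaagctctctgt

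mmu-miR-300-3p_R-2: tatGcaagggcaagctctct

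cgr-miR-300_R-2_1ss7AG: tatGcaGgggcaagctctct

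The bovine miR-381 had 3046 reads, or 669 RPM, in the normal library and 1493 reads, or 529 RPM, in the collapsed library. It was the lower in the collapsed library too, with a ratio of 0.790 (0.742 to 0.841) and a log2 ratio of -0.34. Of the reads of miR-300-3p and miR-381 together, miR-300-3p made up 17.6% in the normal library (exact 95% interval 16.4 to 18.9) and 18.4% in the collapsed library (16.6 to 20.2). For the hamster-named sequence the same share was 2.47% (1.95 to 3.07) and 2.99% (2.20 to 3.97). The shares of both libraries lay within each other's intervals. Precursors of this cluster are known substrates of adenosine deaminases, whose product is sequenced as G, and whether these reads came from a miR-300 or a miR-381 locus was not tested.

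A pair of further numbers from that region in sheep, miR-3955 and miR-3958, and miR-668 had few reads. The sheep-named miR-668-3p had 17 reads (normal) and 10 reads (collapsed), with a ratio of 0.948 (0.388 to 2.19). In a grouping made after the values were seen, the 6 entries of miR-300, miR-668, miR-3955 and miR-3958 summed to 165 RPM (normal) and 140 RPM (collapsed).

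The entry called higher was mouse-named miR-1983, a name whose mouse gene overlaps an isoleucine transfer RNA gene. It had 37 reads (normal) and 56 reads (collapsed), or 8.13 and 19.8 RPM. The collapsed library was the higher by 2.44-fold (1.58 to 3.80), a log2 ratio of 1.29. Under the other 3 scalings the log2 ratio was 1.13 to 1.17, and it was called under each of them. In the authors' deposited table its fold was 2.23 and its log2 fold 1.16. The other miR-1983 entry, placed on the 5p arm, had 1 read in each library.

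**Figure D2:**
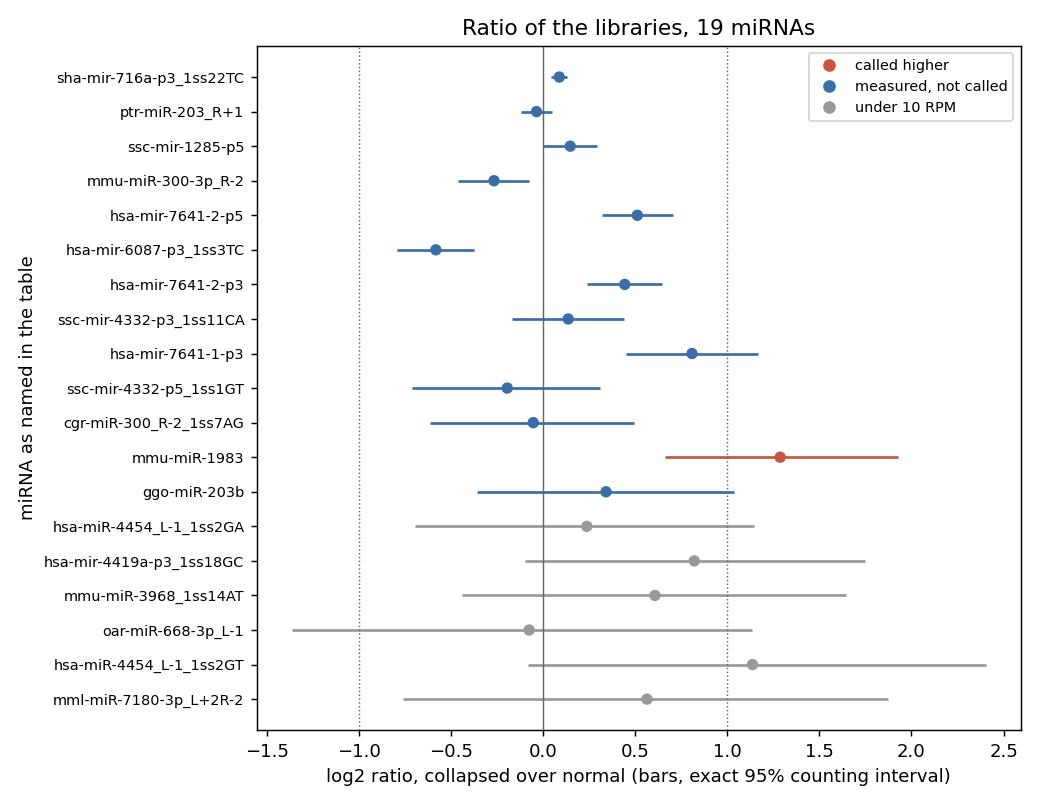
Log2 ratio of collapsed over normal level for the 13 measured miRNAs and 6 others with the most reads (a tie for the last place was settled by mean RPM), each with its exact 95% counting interval; dotted lines mark 2-fold. Only miR-1983 (1.29) passes the call rule; the 3 mir-7641 entries lie between 0.44 and 0.81 and mir-6087-p3 at -0.58.

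Names ascribed to ribosomal RNA in human lay on both sides of a ratio of 1. All 3 miR-7641 entries, a name ascribed to 5S ribosomal RNA, were higher in the collapsed library and none was called. The 5p entry of mir-7641-2 had 474 reads (normal) and 419 reads (collapsed), or 104 and 148 RPM, a ratio of 1.43 (1.25 to 1.63). Its 3p entry had 433 and 365 reads, or 95.1 and 129 RPM, a ratio of 1.36 (1.18 to 1.57). The 3p entry of mir-7641-1 had 128 and 139 reads, or 28.1 and 49.2 RPM, a ratio of 1.75 (1.37 to 2.24). These intervals all lay above 1, and the log2 ratios stayed above 0 under all 4 scalings.

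The 3 miR-7641 entries are not separate in sequence. The 3p sequence of mir-7641-1 is contained in that of mir-7641-2, from its base 3 on. The 5p and 3p sequences of mir-7641-2 share 12 nt, in capitals, and join into 1 run of 32 nt.

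mir-7641-2, 5p and 3p joined: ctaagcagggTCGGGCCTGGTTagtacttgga

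Summed, the 3 entries stood at 227 RPM (normal) and 327 RPM (collapsed), a ratio of 1.44 (1.31 to 1.57), and their share of all reads of the 95 miRNAs was 5.96% and 8.12%.

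mir-6087, another human name ascribed to ribosomal RNA, was lower in the collapsed library. Its 3p entry had 657 reads (normal) and 272 reads (collapsed), or 144 and 96.4 RPM. The ratio was 0.667 (0.577 to 0.770), a log2 ratio of -0.58, which was below 0 under all 4 scalings and did not reach 2-fold. The 5p entry had 14 reads and 2 reads, a ratio of 0.230 with an interval from 0.025 to 1.00, and its fold in the authors' deposited table was 0.211. The pair shares 11 nt, in capitals, and joins into 1 run of 33 nt.

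mir-6087, 5p and 3p joined: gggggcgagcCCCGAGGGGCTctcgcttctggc

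Summed, the mir-6087 pair stood at 147 RPM (normal) and 97.1 RPM (collapsed), a ratio of 0.658 (0.570 to 0.759). The intervals of the miR-7641 and mir-6087 sums lay on opposite sides of 1.

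**Figure D3:**
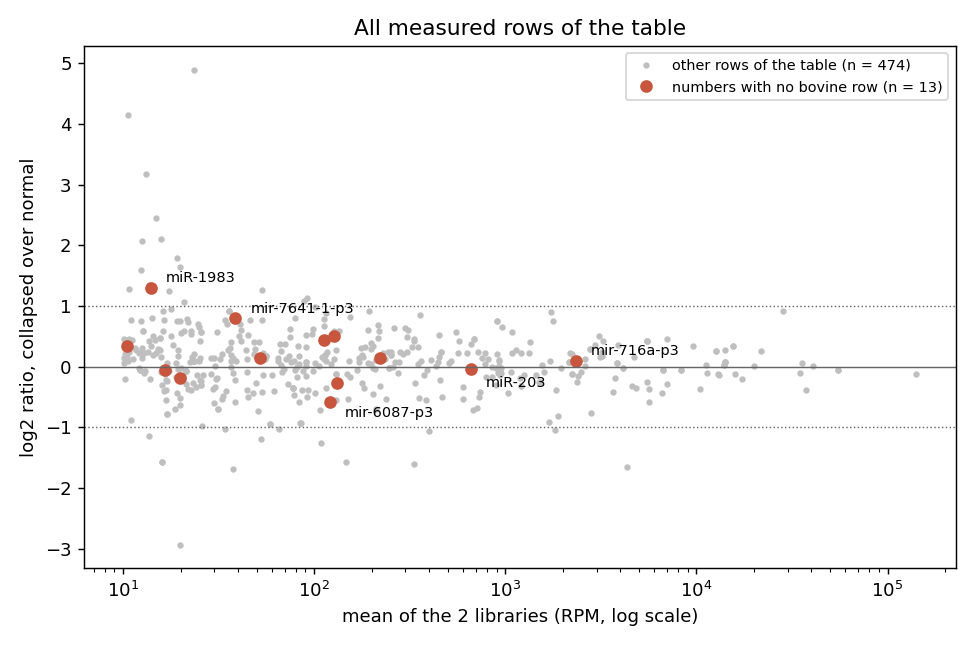
Log2 ratio against mean level for all 487 measured entries of the table, with the 13 described here in red (mean level on a log axis, RPM); dotted lines mark 2-fold. The 13 lie between -0.58 and 1.29 on the log2 scale. Within 1.5-fold of a ratio of 1 lie 11 of the 13, beside 388 of all 487.

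Of the pig-named entries, mir-1285-p5 had 951 reads (normal) and 653 reads (collapsed), or 209 and 231 RPM. Its ratio was 1.11 with an interval from 1.00 to 1.22, which barely left out 1, and its log2 ratio of 0.15 turned to -0.01 under median-of-ratios scaling. mir-4332-p3 stood at 49.7 and 54.6 RPM (226 and 154 reads), a ratio of 1.10 (0.889 to 1.35). mir-4332-p5 stood at 21.1 and 18.4 RPM (96 and 52 reads), a ratio of 0.873 (0.611 to 1.24). Neither mir-4332 interval left out 1, and no role is given here for miR-1285 or miR-4332.

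**Figure D4:**
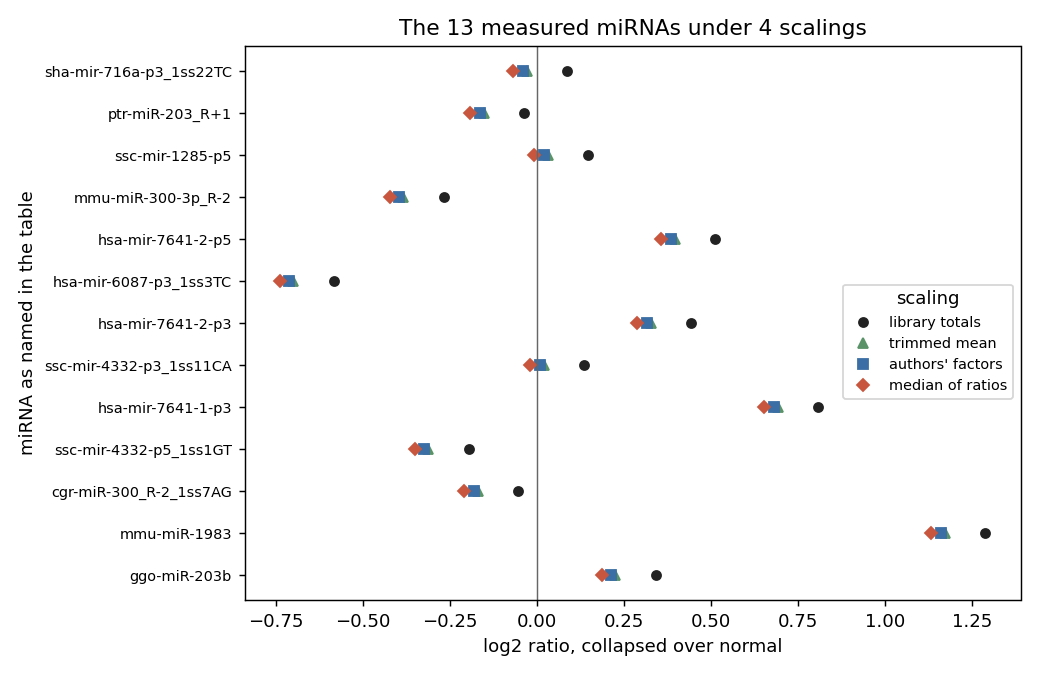
Log2 ratio of the 13 measured miRNAs under library totals, a trimmed mean, median of ratios and the authors' own factors (1 symbol each). The other 3 scalings lie 0.12 to 0.16 below library totals, which takes mir-716a across 0 in all 3 and mir-1285-p5 and mir-4332-p3 across 0 under median of ratios.

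The remaining 82 miRNAs summed to 58.3 RPM (normal) and 77.7 RPM (collapsed). Of these, 15 had more than 10 reads over both libraries, 8 had 4 to 10, and 59 had 3 or fewer. No counting interval of the 82 left out 1. Reads in the normal library alone were found for 27 of the 95, with at most 4 reads each, and in the collapsed library alone for 16, with at most 2 reads each. Over all 2271 entries these counts were 521 and 327, and the normal library was the deeper. At this depth a count of 0 allows up to 3 reads, or 0.659 RPM in the normal and 1.06 RPM in the collapsed library. No fold is therefore given for the 43 of the 95 with reads in 1 library only. Without the minimum on the level, 1 of the 95 passed the fold and interval criteria, again miR-1983, beside 3.52% of all entries in either direction.

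Of the 6 with the most reads under the minimum, both miR-4454 forms bear a human name ascribed to transfer RNA. The miR-4454 form with GA in its suffix had 26 reads (normal) and 19 reads (collapsed), a ratio of 1.18 (0.616 to 2.21). The GT form had 11 and 15 reads, a ratio of 2.20 (0.943 to 5.29), and its fold in the authors' deposited table was 2.01. Neither interval left out 1. The others were mouse-named miR-3968 with 18 and 17 reads, a ratio of 1.52 (0.737 to 3.13), and miR-668-3p above. So were mir-4419a-p3 with 21 and 23 reads, a ratio of 1.77 (0.934 to 3.35), and macaque-named miR-7180-3p with 12 and 11 reads, a ratio of 1.48 (0.591 to 3.66). The last of the 6 shared its total of 23 reads with a second miR-3968 form and a miR-2137 form, and the tie was settled by mean RPM.

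Mature transfer RNAs end in CCA, and 5 of the 95 sequences (5.26%) did so, against 10 of the 715 bovine entries of at least 18 nt (1.40%) and 49 of all 2116 entries of that length (2.32%). In miR-7977, a human name, the same letters were followed by a run of A. The 3 letters are in capitals.

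hsa-miR-4454_L-1_1ss2GA: aatccgagtcacggcaCCA

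hsa-miR-4454_L-1_1ss2GT: tatccgagtcacggcaCCA

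mmu-miR-3968_1ss14AT: cgaatcccactcctgacaCCA

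mmu-miR-3968_L-2_1ss14AT: aatcccactcctgacaCCA

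hsa-miR-548f-3p_L-1R+6: aaaactgtaattacttttgcaCCA

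hsa-miR-7977_R+4_1ss6AG: ttcccggccaacgcaCCAaaaa

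The 5 sequences summed to 15.2 RPM (normal) and 21.6 RPM (collapsed), a ratio of 1.43 (0.993 to 2.04). miR-7977 had 9 reads in the normal and 1 read in the collapsed library, a ratio of 0.179 (0.004 to 1.29), and its fold in the authors' deposited table was 0.163. An ending in these letters is a description of the sequence and does not place it in a gene.

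Over a list of names ascribed to other classes of RNA, such as ribosomal and transfer RNA, which covered 11 of the 95 miRNAs, 4 were measured, 3 with a ratio above 1 and 1 below, and 0 were called. The list went by number and did not hold mir-716a, mir-1285-p5, miR-1983 or miR-3968. Whether reads of these or other names outside the list came from such RNA was not tested. The median log2 ratio of the 4 was 0.48, beside 0.09 over all measured entries. The 3 above 1 were the miR-7641 entries, which overlap in sequence and are not separate observations, and the 1 below was mir-6087-p3. The median therefore mostly restates miR-7641 and does not describe the list. The summed level of the 11 was 384 RPM (normal) and 440 RPM (collapsed). Among the 11, human-named mir-1973-p3 had 1 read (normal) and 5 reads (collapsed), a ratio of 8.06 (0.902 to 381). Its fold in the authors' deposited table was 7.40. A list of numbers from established miRNA families covered 10 entries, among them the rodent families miR-466 and miR-467 and the primate family miR-548. Of these, 2 were measured, both miR-203, with a median log2 ratio of 0.15, and 0 were called. Of the miRNAs that lie opposite another miRNA on the other strand, the list held 1 member, human-named miR-3065-5p, with 1 read in the normal library.

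In human, miR-3065 and miR-338 come from opposite strands of one locus. The miR-3065-5p sequence holds a run of 21 nt, in capitals, that is the reverse complement of the bovine miR-338 sequence in the table.

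hsa-miR-3065-5p: tcAACAAAATCACTGATGCTGGA

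bta-miR-338_R-2: tccagcatcagtgattttgtt

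The miR-338 entry had 488 reads (normal) and 215 reads (collapsed), against the single read of miR-3065-5p. Rat-named miR-3548, with 2 reads and 1 read, was in the same way the reverse complement over 20 nt of miR-200a-5p, with 92 and 56 reads. Rat-named mir-3553-p5, with 0 reads and 1 read, was so over 21 nt of miR-183-3p, which itself had 1 read and 0 reads.

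A further group lay close in sequence to a bovine miRNA. Allowing at most 2 mismatches, 15 of the 95 matched a bovine entry over at least 16 nt, 7 of them with at most 1. The matched entry was itself scarce for 2 of the 15, a miR-6129 form and miR-352. For both it was bta-mir-3596-p5, at 1.67 RPM (normal) and 2.30 RPM (collapsed). miR-352 also shared a run of 18 nt with bta-let-7d. Macaque-named miR-6134 differed from bovine let-7a-5p, a broadly expressed miRNA that restrains growth, by T13A. The difference is in capitals.

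mml-miR-6134_R+4_1ss18GT: tgaggtagtaggAtgtatagtta

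bta-let-7a-5p: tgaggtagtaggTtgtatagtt

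miR-6134 had 8 and 9 reads, beside 188664 and 123075 reads of let-7a-5p, or 0.0042% and 0.0073% of them. miR-322 is the rodent name of miR-424, of the miR-15/16 seed family. The mouse-named miR-322-5p had 1 read in each library and differed from bovine miR-424-5p by A21G. miR-424-5p itself stood at 1213 RPM (normal) and 2270 RPM (collapsed). Both miR-3968 sequences differed from bta-miR-2478 by T9C, and that entry stood at 254 and 358 RPM. The number miR-2478 is itself on the list of names ascribed to other classes of RNA. Whether reads of these close sequences are the named miRNA, altered reads of the bovine entry or fragments of another RNA was not tested.

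The 95 names came from mammals throughout: 50 from primates, 31 from rodents, 10 from hoofed mammals and 4 from other mammals. The measured ones numbered 6, 3, 3 and 1, in that order. The name recorded a substitution for 48 of the 95 (50.5%), against 15.5% of bovine entries of at least 18 nt and 28.2% of those under another species' name with a bovine number. The median GC content was 52.6%, and 55.0% among the measured 13, against 45.5% for those bovine entries. The median length was 21 nt against 22 nt.

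In the RefSeq gene table of the ARS-UCD2.0 assembly, used for names and neighbours only, 13 of the 74 numbers, with 16 of the 95 entries, had a bovine miRNA gene of that number. None of the 16 was measured, and they summed to 12.1 RPM (normal) and 17.0 RPM (collapsed). Among them, MIR668 lay within 10 kb of MIR485, MIR134, MIR453 and MIR382, MIR3065 of MIR338, and MIR1842 of MIR2382. Horse-named miR-1842 had 4 reads and 8 reads, and its fold in the authors' deposited table was 2.95. The numbers of the 13 measured miRNAs had no match in that table.

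The length limit of 18 nt left out 89 entries with 1235 reads (normal) and 1156 reads (collapsed). The 11 entries of 18 nt, just inside it, held 50.3 reads (normal) and 46.3 reads (collapsed) and 0 of them were measured. The 26 of 17 nt, just outside it, held 836.5 and 734.5 reads and 2 were measured.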

How the data were processed

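The authors' deposited table gives, per miRNA name and sequence, a raw read count (written with commas, which were removed, and not whole where a read was shared), a normalized signal, a fold, a log2 fold and p-values for 1 pair of pooled libraries. The genome build was bosTau8, per the submitters' processing notes; for the aligner, trimming and name matching, nothing is given in the sources used here. The authors' normalized signal equals the deposited read count divided by 1 factor per library (1.21 for normal and 0.823 for collapsed). The authors' p-values compare reads of 2 libraries and were used only to list entries. Analysis was in Python 3.11.15 with NumPy 2.4.6, SciPy 1.17.1 and pandas 2.3.3. RPM were computed on the library totals, ratios with 0.5 reads in place of 0, and exact conditional binomial (Clopper-Pearson) 95% intervals on rounded reads; intervals and the floor of 3 reads cover counting error only, since amplified reads without molecular identifiers are not independent molecules. The procedure was tested on data simulated with counting error only, so variation between animals or libraries could not show in it. The simulation changed only entries more abundant than miR-1983, and by a larger planned fold. Named miRNAs were those called, those at 10 RPM or more, and the 6 with the most reads below it; any other was chosen after its values were seen. The members and lists were chosen with earlier results of these data known. Alternatives were other scalings, minimums, thresholds, added reads and length limits. Sequences are those of the deposited table.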

Additional observations from a re-analysis of the deposited data

How the results depend on the processing

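No paired analysis was possible because each phenotype had a single library. The number of the 95 miRNAs taken as measured was 13, and 95 with no minimum or 7 with a minimum of 100 RPM, by construction. Called higher were 0 with that minimum (miR-1983, log2 ratio 1.29, lies under it), beside 0 of all 242 measured entries. At a 1.5-fold threshold 2 were called higher (miR-1983 and mir-7641-1-p3 at 0.81), beside 62 of 487, and at 4-fold 0, beside 6 of 487. Entries of any length gave 18 measured and 2 called higher, beside 17 of 487, and the added one was shorter than 18 nt. Their median log2 ratio was 0.36 in place of 0.14, and their shares were 0.409% (normal) and 0.443% (collapsed). Keeping only sequences of at least 20 nt gave shares of 0.372% and 0.391%. The count called lower was 0 under every alternative run, beside 21 of 487 entries under median of ratios, 35 at 1.5-fold, 1 at 4-fold and 6 of 242 at 100 RPM. The median log2 ratio was -0.02 under median of ratios, 0.02 under the trimmed mean and 0.01 under the authors' factors. The log2 ratio of chimpanzee-named miR-203 moved from -0.04 to -0.19, -0.15 and -0.16 under those 3 scalings. Depth limits a typical measured miRNA to a log2 counting half-width of 0.21.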
